A study of Sus scrofa with 24 samples.

Results

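Vesicle coat, sorting and tethering genes encode the machinery that buds, routes and captures membrane carriers in the cell. They were chosen by gene name from the annotation of the array, by the name families VPS, SNX, TRAPPC, COPA to COPZ, ERGIC, SEC22, SEC23, SEC24, SEC31 and COG, and they numbered 87 genes with 153 probe sets among 13750 genes with a symbol. The families were picked because ERGIC2 and VPS13C had followed the main axis of variation among the fetuses, so their relation to that axis is given as a description, with no test. A probe set was used when its level exceeded the array's median in 20 or more of the 24 arrays, and 81 of the 87 genes had such a probe set among 9710 genes in all. SNX10, SNX16, SNX22, SNX24, SNX31 and VPS37C had none.

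The data came from longissimus dorsi muscle, the long muscle of the back, of 24 untreated F2 pig fetuses of a German Landrace and Pietrain cross, at 63 days post conception (dpc). RNA of each was hybridized to 1 Porcine Snowball array of Affymetrix, and all values are log2 levels after robust multichip averaging (RMA). The study asked how fetuses of low weight, with intrauterine growth restriction (IUGR), compare with those of weight appropriate for gestational age (AGA), but the deposited labels place no fetus in a weight group, so no comparison of groups was made and the study's own listing of weight groups was not used. All fetuses had the same sire and were taken as sibs of extreme weight within litters, so they are not fully independent and p-values over them measure only the spread between these samples. In whole muscle, fewer cells of a type and less RNA per cell cannot be told apart.

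New proteins leave the endoplasmic reticulum (ER) in carriers coated by COPII, pass the ER-Golgi intermediate compartment (ERGIC) and are returned by carriers coated by COPI. Tethering complexes such as TRAPP, COG, GARP and HOPS catch incoming carriers at the Golgi, endosome or lysosome. Retromer and the sorting nexins recover proteins from endosomes, the ESCRT proteins bud membrane inwards for degradation, and the VPS13 proteins carry lipids between membranes.

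Of the muscle markers with a probe set, ACTA1 (skeletal actin) had a median level of 13.41, CKM 13.48, TNNT3 13.05, DES (desmin) 12.62 and MYOD1 8.42, all past the filter, while MYH3, MYH8 and MYOG had no named probe set. The array medians were 6.61 to 6.73. Fetus 338 stood apart most, with a median correlation of 0.946 with the other arrays, against 0.961 to 0.980 in the others. The first principal component, computed without the 87 genes, held 39.6% of the variance, and its score rose with the mean signal of 39 background control probe sets that match no transcript (r = 0.767, rho = 0.747, n = 24). That signal was lowest in fetus 338 (7.30), which also had the lowest score, and highest in fetus 313 (7.94), which had the highest. Its values are therefore given beside the results below. Whether the score of the component also went with fetal weight was not examined, since the weight groups were not used.

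A few of these genes varied widely among fetuses. Those few also had a strongly negative r with the component, which is only a description, since the families were picked on that measure. The median span, the distance from the 10th to the 90th percentile of the fetuses, was 0.43 on the log2 scale against 0.42 over all genes, and 46 of the 81 genes were above the latter. It was 1 or more in 3 genes, ERGIC2 (1.13), TRAPPC6B (1.08) and SNX2 (1.06), and in 2.22% of all genes. VPS54 (0.99) and VPS13C (0.99) came next. The narrowest were TRAPPC10 (0.23), SEC31B (0.24) and SNX27 (0.24).

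ERGIC2, a membrane protein that cycles between the ER and the Golgi, had a lowest level of 9.03, a median of 9.73 and a highest level of 10.62. It was lowest in fetus 313 and highest in fetus 338, and its order over the fetuses was nearly that of the component (r = -0.989, rho = -0.997). VPS13C, a lipid transfer protein of late endosomes, lysosomes and lipid droplets, ran from 8.22 in fetus 272 through a median of 8.77 to 9.53 in fetus 338 (r = -0.976). SNX2, a membrane-bending sorting nexin that works with retromer, ran from 7.03 in fetus 283 through 7.70 to 8.52 in fetus 338 (r = -0.972). VPS54, the subunit that sets the GARP tether apart from its relative EARP, ran from 6.44 through 7.08 to 7.90 (r = -0.941). TRAPPC6B, a small subunit of the TRAPP tether, ran from 8.08 through 8.82 to 9.72 (r = -0.935). Each of these 5 genes was highest in fetus 338.

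Without fetus 338, ERGIC2 had r = -0.985, VPS13C -0.970, SNX2 -0.968, VPS54 -0.930 and TRAPPC6B -0.912. After the background control signal was taken out of every gene and the component computed again, ERGIC2 had r = -0.964, VPS13C -0.935, SNX2 -0.889, VPS54 -0.822 and TRAPPC6B -0.823.

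**Figure D1:**
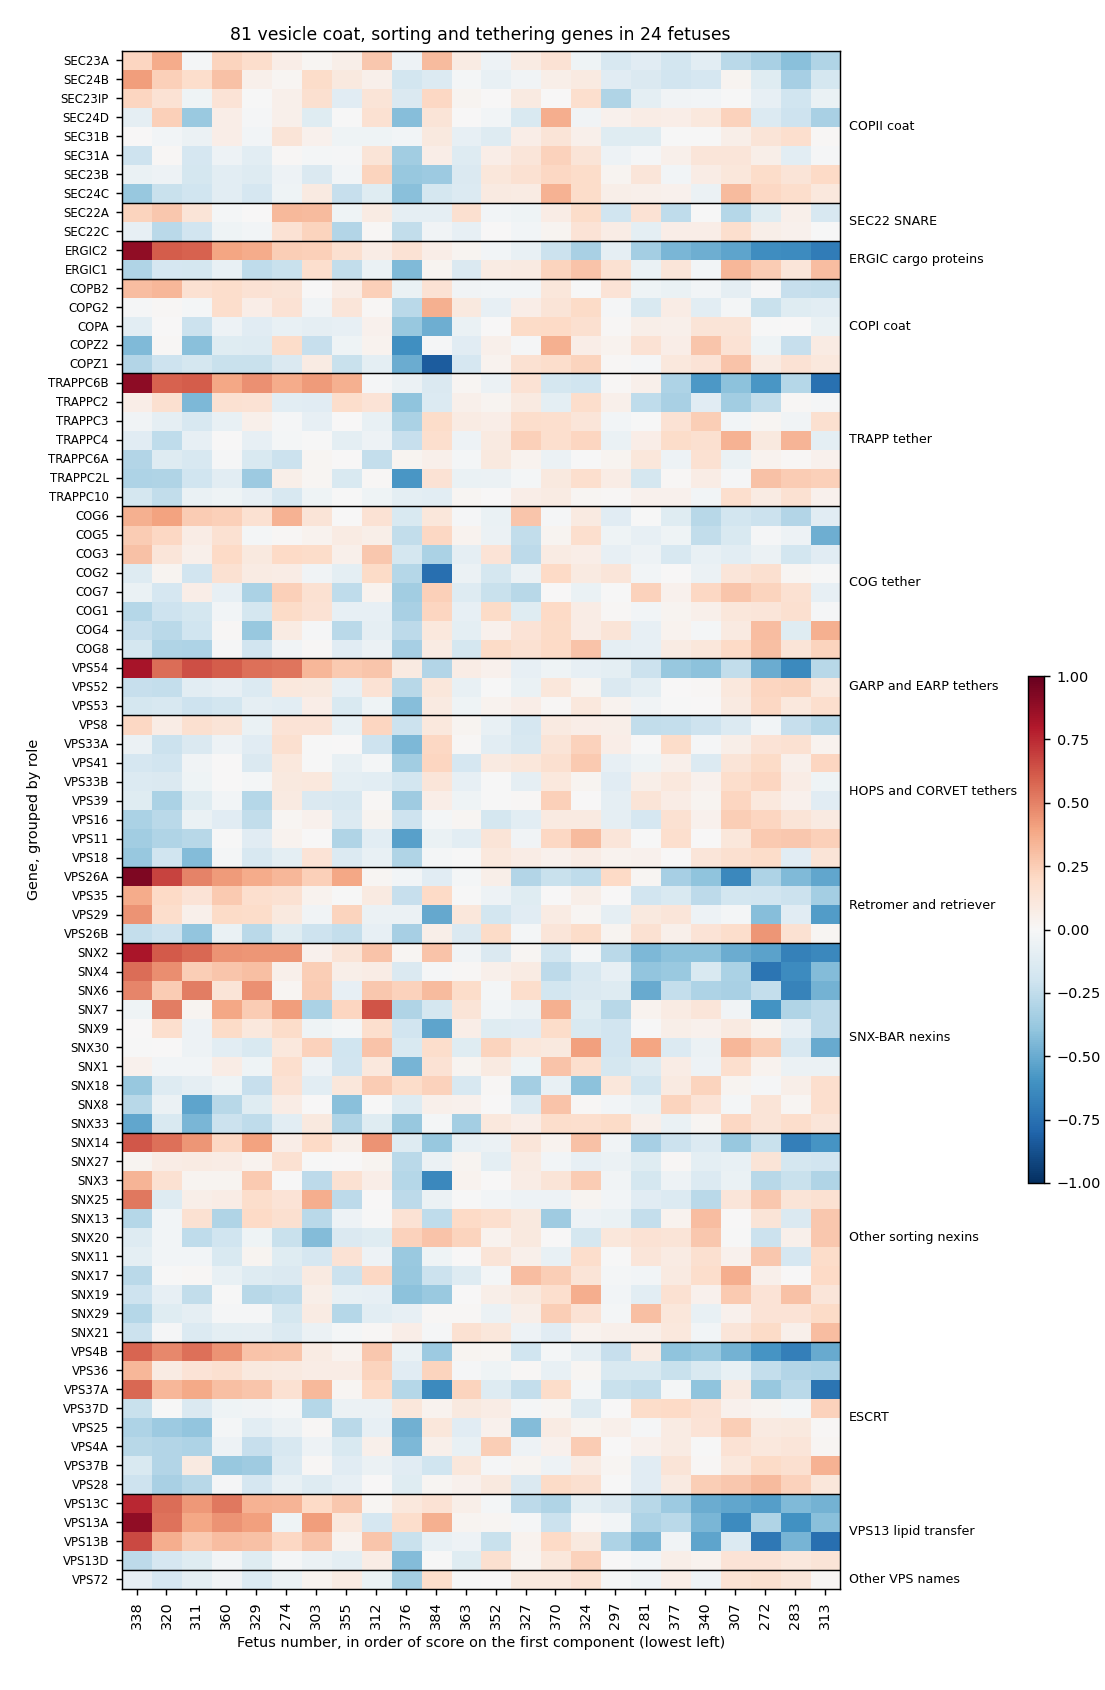
Heat map of the 81 genes (rows, grouped by role) in the 24 fetuses (columns, ordered by score on the first component), coloured by log2 level minus the gene's median. ERGIC2, TRAPPC6B, VPS54, VPS26A, SNX2, VPS4B, VPS13A, VPS13B and VPS13C go from high at the left to low at the right, and fetus 376 is a low column across many other rows.

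In all, 33 of the 81 genes had a negative r with the component (40.7%, against 35.3% of all genes) and 48 a positive one. An r under -0.8 was seen in 16 genes (19.8%), against 10.8% of all genes. Besides the 5 above they were VPS26A, VPS4B, VPS13A, SNX4, VPS35, VPS36, SNX6, VPS13B, COG6, SNX14 and COPB2. Just outside lay SEC23A (-0.799) and SEC24B (-0.798). An r over 0.8 was seen in 2 genes (2.47%), TRAPPC10 (0.822) and VPS28 (0.819), against 2.77% of all genes. VPS26B (0.786), SNX33 (0.783) and SNX21 (0.741) followed. Since the families were picked on this measure, nothing is read from these shares. Genes of negative r had a median span of 0.53 and those of positive r one of 0.39. The same medians were not taken over all genes.

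All 13 roles with more than 1 gene past the filter held genes of both signs of r. With 40.7% of the vesicle genes negative, a role of several genes would be likely to hold both signs by number alone. The families were also picked on this measure, so whether the sign of r follows the complexes cannot be decided here. Close relatives of each other or subunits of the same complex were compared in 50 pairs that were put together after the values had been seen. Their correlations are given only as a description.

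**Figure D2:**
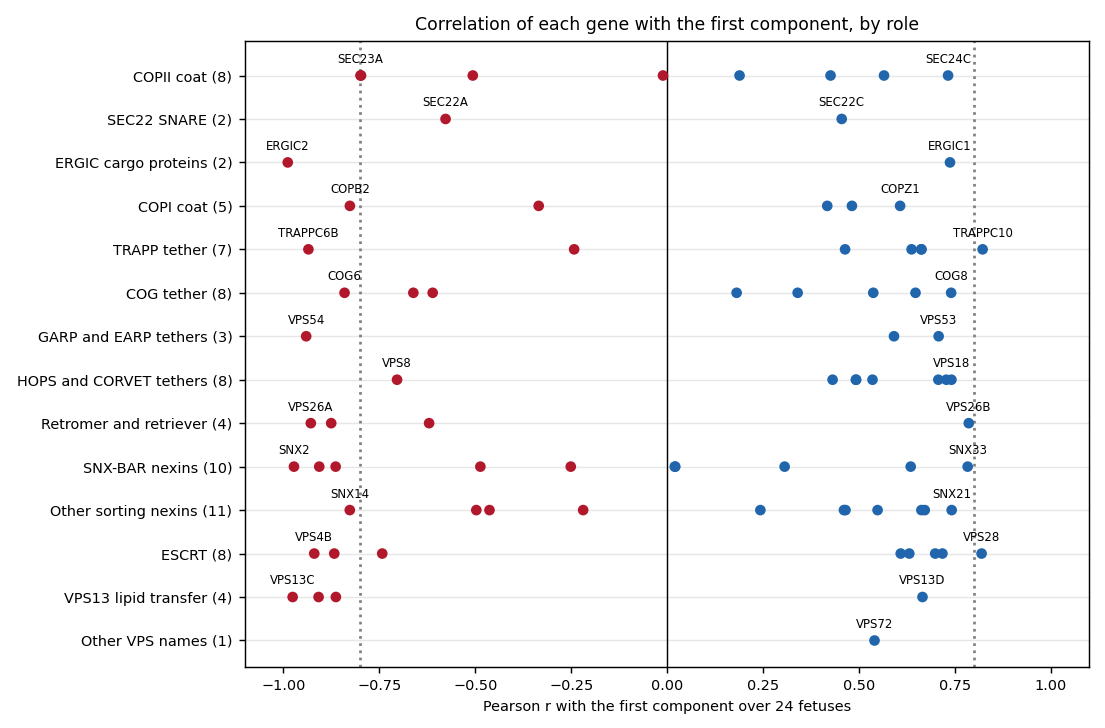
Pearson r of each gene with the first component over 24 fetuses, by role, with the number of genes past the filter in brackets and the genes at either end named. Red points are negative and blue points positive, dotted lines mark -0.8 and 0.8, and every role with more than 1 gene has points on both sides of 0.

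Among the COPII coat genes, SEC23A and SEC23B encode alternative forms of the inner coat subunit that triggers hydrolysis by the SAR1 GTPase. SEC23A ran from 9.90 through 10.31 to 10.68 and had r = -0.799 with the component, and SEC23B ran from 8.02 through 8.40 to 8.62 and had r = 0.565. Their levels over the fetuses correlated at r = -0.402. SEC24B, SEC24C and SEC24D encode forms of the cargo-binding subunit, and they had r = -0.798, 0.732 and -0.011, the last of which was 0.439 with the background control signal removed. SEC31A, the outer coat subunit, had r = 0.426, and its relative SEC31B had r = 0.188 with a span of 0.24, the narrowest of the coat. SEC23A was the widest (0.55). SEC23IP, which binds SEC23, moved with SEC23A (r = 0.694, and 0.558 with the component removed). SEC31A had r = 0.02 with SEC23A in the levels as they stood and 0.663 with the component removed.

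ERGIC1 and ERGIC2, both of which cycle through the intermediate compartment, were opposed over the fetuses, with the lowest Pearson r of the 50 pairs (-0.727). By rank, rho was -0.770 for them and -0.777 for VPS53 and VPS54. ERGIC1 ran from 9.62 in fetus 376 through 10.06 to 10.39 in fetus 307. With the component removed from both genes, their r was 0.01, and with the background control signal removed it was -0.746. SEC22A and SEC22C, relatives of a SNARE fusion protein of this route, had r = -0.577 and 0.455 with the component.

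In the COPI coat, COPA ran from 10.81 through 11.30 to 11.50 (r = 0.417) and COPB2, a subunit of the same outer layer, from 9.13 through 9.37 to 9.71 (r = -0.827). COPZ1 and COPZ2, the alternative zeta subunits, correlated with each other (r = 0.479). COPZ2 had the widest span of this coat (0.54) and COPB2 the narrowest (0.31).

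In the TRAPP tether, which also activates the Rab1 GTPase, TRAPPC6A and TRAPPC6B are alternative subunits. TRAPPC6A ran from 6.73 in fetus 338 through 7.03 to 7.17, so it was lowest where TRAPPC6B was highest (r between them -0.591). With the background control signal removed, this r was -0.06. TRAPPC10, a subunit particular to the TRAPP II form, ran only from 8.75 to 9.16 around a median of 8.99. The other subunits TRAPPC2, TRAPPC2L, TRAPPC3 and TRAPPC4 had r from -0.242 to 0.663 with the component and spans of 0.26 to 0.53, and TRAPPC2, the lowest of them, had r = 0.0506 with the background control signal removed.

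The COG complex, a tether for carriers moving back through the Golgi, held 3 genes of negative r and 5 of positive r. COG6 had the widest span (0.53) and the lowest r (-0.841), and COG2 the narrowest span (0.34). COG1 and COG8, which join the complex's lobes, moved together (r = 0.753, and 0.626 with the component removed). COG2 was at 6.84 in fetus 384, against a median of 7.59.

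In the GARP tether, which receives carriers from endosomes at the trans-Golgi, VPS52 and VPS53 moved together (r = 0.759) and VPS54 against both (r = -0.561 and -0.671). VPS53 ran from 8.60 through 9.03 to 9.23 with a span of 0.29, against 0.99 for VPS54. With the component removed, VPS52 and VPS53 kept r = 0.599, and VPS54 had r = -0.02 with VPS52 and -0.03 with VPS53.

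The HOPS and CORVET tethers, which bring carriers to lysosomes and early endosomes, were the most coherent role. The mean correlation over their 28 pairs was 0.471, against 0.113 over pairs within all roles (0.0656 without fetus 376) and 0.0298 over all pairs of genes. It was 0.507 with the component removed and 0.510 with the background control signal removed. The mean of this role was not taken without fetus 376, which had the lowest level of VPS11, VPS33A, VPS33B, VPS39 and VPS41. The shared core subunits VPS11 and VPS18 correlated at r = 0.758, VPS16 and VPS33A at 0.637, and the HOPS subunits VPS39 and VPS41 at 0.681. VPS8, the subunit particular to CORVET, was the 1 gene of negative r among the 8 (-0.704). VPS11 had the widest span (0.56) and VPS33B, which works in a tether of its own, the narrowest (0.24).

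Retromer recovers receptors from endosomes with a core of VPS35, VPS29 and either VPS26A or VPS26B. VPS26A ran from 7.81 in fetus 307 through 8.46 to 9.39 in fetus 338, and VPS26B from 7.85 in fetus 311 through 8.24 to 8.68 in fetus 272. The alternative subunits were opposed (r = -0.691, and -0.603 with the background control signal removed). VPS35, which binds both, went with VPS26A (r = 0.810) and against VPS26B (r = -0.482). With the component removed the order turned, to r = -0.02 with VPS26A and 0.690 with VPS26B. VPS29 ran from 9.81 in fetus 313 through 10.37 to 10.82 in fetus 338 (r = -0.620) and went with VPS35 (r = 0.507), but not with the background control signal removed (r = -0.238). VPS35 had the narrowest span of the core (0.43).

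Of the SNX-BAR nexins, which bend membrane into tubules, SNX2 and SNX6, known as partners in the same dimers, moved together (r = 0.888), and SNX4, of an endosome recycling route, ran from 6.56 through 7.30 to 7.86 (r = -0.907). SNX1, a close relative of SNX2, had the narrowest span of the group (0.33) and r = 0.02 with the component. SNX33, of the group with SNX9 and SNX18 that acts in endocytosis, ran from 7.35 in fetus 338 through 7.87 to 8.08 (r = 0.783). Among the other nexins, SNX14, which acts where the ER meets lipid droplets, had the widest span (0.83, r = -0.827), and SNX27, a cargo adaptor of retromer, the narrowest. SNX27 and SNX3, another retromer adaptor, had r = -0.497 and -0.463 with the component, but 0.0162 and 0.173 with the background control signal removed. SNX17, SNX19 and SNX29 had r = 0.548, 0.662 and 0.671.

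Among the ESCRT genes, VPS4A and VPS4B encode the ATPases that take the machinery apart. VPS4A ran from 8.38 in fetus 376 through 8.83 to 9.08, and VPS4B from 7.85 in fetus 283 through 8.53 to 9.11 in fetus 338. They were opposed (r = -0.589), and with the component removed they had r = 0.188. VPS37A and VPS37B, alternative ESCRT-I subunits, were opposed too (r = -0.433), but not with the background control signal removed (r = 0.204). VPS25 and VPS36, both of ESCRT-II, had r = 0.631 and -0.868 with the component. VPS37D had the narrowest span (0.31) and VPS4B the widest (0.96).

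Of the VPS13 lipid transfer proteins, VPS13A, VPS13B and VPS13C had r = -0.908, -0.863 and -0.976 with the component and VPS13D 0.665. VPS13A and VPS13C had the highest correlation of the 50 pairs (r = 0.921), which was 0.378 with the component removed. VPS13D, whose span was 0.29, was opposed to both (r = -0.635 and -0.649). VPS72, which the name rule also took in, encodes a subunit of a chromatin remodelling complex and not a vesicle protein. It ran from 9.39 through 9.73 to 9.91 (r = 0.539).

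**Figure D3:**
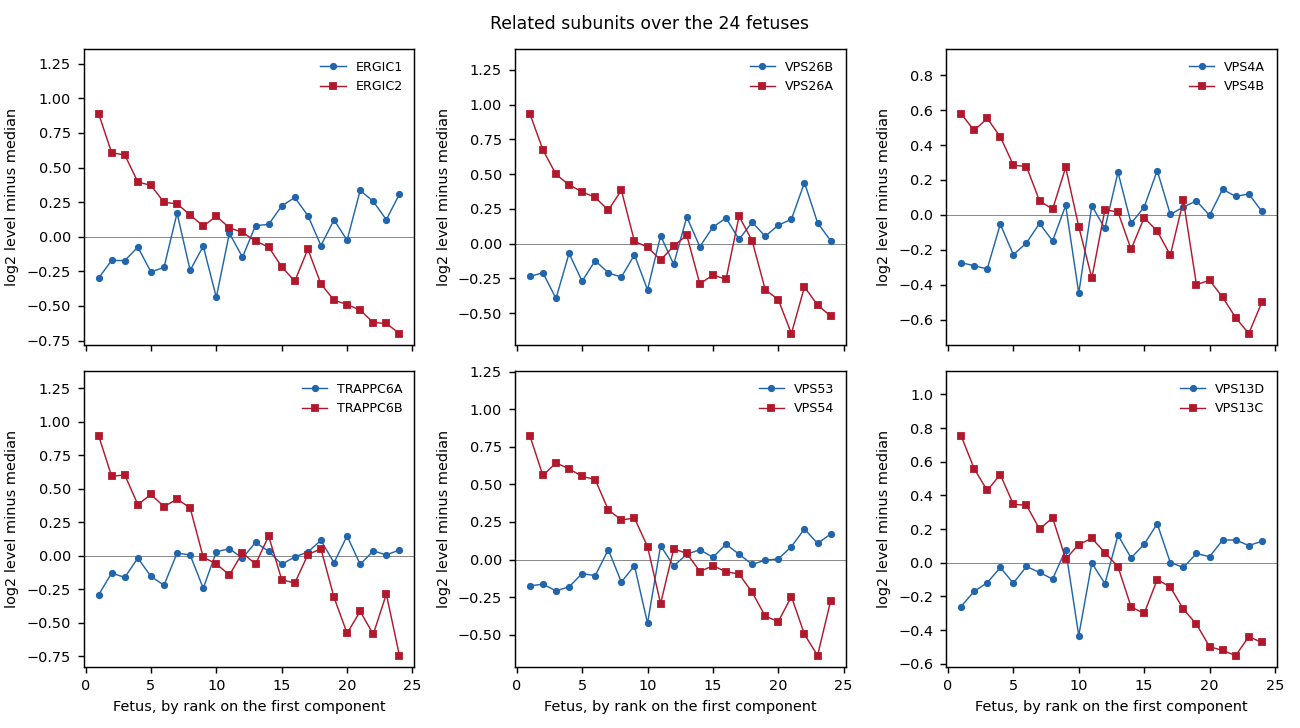
Log2 level minus the gene's median over fetuses, by rank of the fetus on the first component (1 lowest, 24 highest), for ERGIC1 and ERGIC2, VPS26B and VPS26A, VPS4A and VPS4B, TRAPPC6A and TRAPPC6B, VPS53 and VPS54, and VPS13D and VPS13C. The red gene of each panel falls from left to right and by more than the blue gene rises, and VPS13D, ERGIC1, VPS4A and VPS53 dip together in the fetus of rank 10, fetus 376.

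Fetus 376 was low in many of the genes. It held the lowest level of 28 of the 81 genes, 25 of them with positive r, and the highest of none. Fetus 338 held the highest level of 21, among them 13 of the 16 genes with r under -0.8. Such counts were not taken over all genes, so they are not read as particular to the vesicle genes. Fetus 376 lay near the middle of the component (rank 10 of 24), had the lowest lysosome score of all fetuses (-2.26 SD) and the highest array median (6.73).

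For genes with more than 1 probe set past the filter, 21 in all, the probe sets could be compared. VPS36 had the most alike (r = 0.912), followed by VPS8 (0.786). The least alike were those of VPS28 (r = -0.352), TRAPPC2 (-0.121) and SNX30 (-0.101). In 5 genes, VPS28, SEC24B, TRAPPC10, SNX18 and SNX9, the probe sets had opposite signs of r with the component, so the positions given for these 5 genes hold for their brightest probe set. For VPS28 the probe sets had r = 0.819 and -0.444.

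The rule that chose the 87 genes used no score of cargo or organelle genes. The lysosome and sterol synthesis scores went with the component, however (r = 0.707 and 0.657). The lists of the scores were also chosen with earlier results of these data known. Every gene was fitted with limma on 5 scores, each the mean centred level of a list of genes and scaled to 1 SD over the fetuses, and on the background control signal. Slopes are in log2 per SD of the score, the genes of a score were left out of its own fit, and the p-values of all genes tested were adjusted together (Benjamini-Hochberg). A gene is called when its adjusted p was under 0.05.

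The secreted matrix score, from 14 genes of collagens and other matrix proteins, was followed by 3 of the 81 genes (3.70%), against 2.25% of all genes. SNX7, a nexin of an endosome recycling route, rose by 0.24 per SD (SE 0.04, adjusted p = 0.000313), from 8.27 through 8.87 to 9.50. COPZ2 rose by 0.17 (SE 0.03, adjusted p = 0.00124), from 10.49 through 11.11 to 11.46, and SEC24D, the cargo subunit on which collagen export is known to depend in zebrafish and medaka fish, by 0.16 (SE 0.03, adjusted p = 0.000346), from 10.15 through 10.58 to 10.94. These calls were kept with any 1 fetus left out, with the background control signal in the fit and with the component in the fit. None of the 81 genes fell with it, against 0.0309% of all genes, and 1 did at an unadjusted p under 0.05. The summed level of 4 of 6 tendon markers past the filter moved with this score (r = 0.931), as did 5 of 5 cartilage markers (r = 0.870). The mean level of the tendon markers ran from 10.27 to 12.02 and that of the cartilage markers from 7.68 to 9.11. Of the other tendon markers, MKX had a median of 2.96 and SCX had no named probe set. The part of these cells in the 3 calls was not tested.

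The ER folding score, from 16 genes of chaperones and the unfolded protein response, was followed by 5 genes (6.17%), against 1.46% of all genes. They belonged to the COPI coat (COPZ2 and COPA), the COPII coat (SEC23B and SEC31A) and the nexins (SNX17, the cargo adaptor of retriever). COPZ2 rose by 0.16 per SD (SE 0.03, adjusted p = 0.0119), COPA by 0.14 (SE 0.02, adjusted p = 0.00154) and SNX17 by 0.12 (SE 0.03, adjusted p = 0.0454). Only COPA was called whichever fetus was left out. Without fetus 370 just 1 of the 5 was left (0.443% of all genes were called then), and without fetus 376 the other 4 had adjusted p of 0.0671 (COPZ2) to 0.180 (SEC31A). With the component in the fit 12 of the 81 genes were called (14.8%), against 2.93% of all genes. None fell, against 0.0928% of all genes, and none did at an unadjusted p under 0.05. The score moved with the matrix score (r = 0.684) and the tendon markers (r = 0.569).

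The lysosome score, from 15 genes of lysosomal enzymes and membrane proteins, was followed by the most genes. Of the 81 genes, 38 rose with it (46.9%), against 31.7% of all genes, and 10 fell (12.3%), against 12.4%. VPS11 rose by 0.20 per SD (SE 0.02, adjusted p = 2.89e-06), from 7.73 through 8.27 to 8.59, SNX33 by 0.19 (SE 0.03) and COPZ2 by 0.19 (SE 0.03). By role, 7 of 8 HOPS and CORVET genes rose, 4 of 8 COPII genes, 4 of 7 TRAPP genes, 3 of 5 COPI genes, 3 of 8 COG genes and 3 of 8 ESCRT genes. ERGIC2 fell by 0.32 (SE 0.06), TRAPPC6B by 0.28 (SE 0.06) and VPS26A by 0.27 (SE 0.06), and the other 7 that fell were VPS13C, SNX2, VPS13A, VPS54, SNX6, VPS4B and SNX4.

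The lysosome score and the component, on which the gene families were picked, were correlated (r = 0.707). The shares called without the component in the fit are therefore a description, from which nothing is read. The lysosome score also went with the Schwann cell markers (r = 0.605), the skeletal muscle markers (r = 0.581) and, at r = 0.227 to 0.414, the other marker lists, whose part in these calls was not tested. With the component in the fit, 34 genes rose (42.0%), against 17.3% of all genes, and none fell, against 5.63%. Of the main calls, 24 of the 38 rising ones were kept and none of the 10 falling ones, of which SNX2, SNX4, VPS4B and VPS54 turned sign without being called. There ERGIC2 had a slope of -0.03 (adjusted p = 0.335) and VPS11 one of 0.17 (adjusted p = 0.00149). Kept were SEC23B, SEC24C, SEC24D and SEC31A of the COPII coat, COG1, COG4 and COG8, and VPS11, VPS18, VPS39 and VPS41 of the HOPS tether, among others. With the background control signal in the fit, all 48 calls were kept. Without fetus 376, which had the lowest lysosome score, 20 genes fell with the score (24.7%, against 15.9% of all genes) in place of 10, and the rising calls of SEC24D, SNX1, SNX11, TRAPPC3 and VPS33A were lost.

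**Figure D4:**
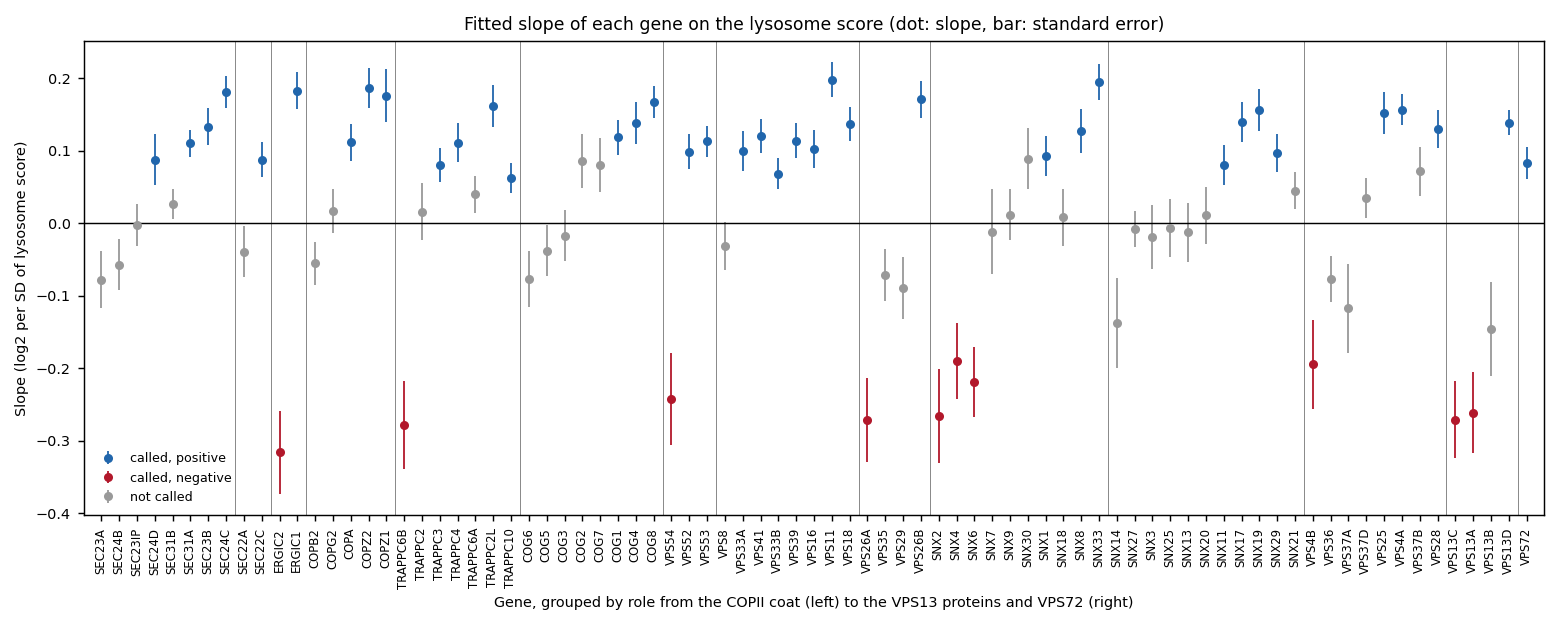
Slope of each of the 81 genes on the lysosome score in log2 per SD (points) with its standard error (bars), grouped by role, blue where called rising, red where called falling and grey where not called. The HOPS and CORVET genes lie above 0 apart from VPS8, and the 10 falling genes are scattered over 7 roles that also hold rising genes.

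The sterol synthesis score, from 12 genes of cholesterol synthesis and uptake, was followed upwards by 10 genes (12.3%), against 12.7% of all genes, and downwards by 13 (16%), against 13.3%, so these shares were near those of all genes. VPS54 fell by 0.30 per SD (SE 0.05, adjusted p = 0.000908), TRAPPC6B by 0.28 (SE 0.06) and SNX2 by 0.27 (SE 0.06). VPS26B rose by 0.14 (SE 0.03, adjusted p = 0.0053), ERGIC1 by 0.12 (SE 0.04) and SNX33 by 0.12 (SE 0.04). With the component in the fit none of the 23 calls was kept, and with the background control signal VPS54 (adjusted p = 0.00974) and TRAPPC6B (adjusted p = 0.0410) were. The score was lowest in fetus 274 (-3.00 SD) and fetus 311 (-2.14 SD). Rising calls numbered 22 without fetus 274 (27.2%, against 19.5% of all genes) and 3 without fetus 311 (3.70%, against 7.02%), so they moved with those of all genes. The score went with the component (r = 0.657) and with the skeletal muscle markers (r = 0.752), whose part in these calls was not tested.

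The contractile score came from 12 genes of the sarcomere and muscle energy supply. It was followed by none of the 81 genes in limma, against 0.0928% of all genes upwards and 0% downwards. At an unadjusted p under 0.05, 9 rose and 2 fell. The share of all genes at this unadjusted threshold was not taken, here or for the matrix and ER folding scores. Nothing is read from these unadjusted counts.

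The background control signal itself was followed upwards by 11 genes (13.6%), against 20.9% of all genes, and downwards by 29 (35.8%), against 22.8%. As this signal ran with the component on which the families were picked, these values are a description and nothing is read from the shares. TRAPPC6B fell by 0.35 per SD (SE 0.05), ERGIC2 by 0.32 (SE 0.06) and VPS13B by 0.32 (SE 0.04). SNX20 rose by 0.13 (SE 0.03), SNX18 by 0.11 (SE 0.03) and VPS37B by 0.10 (SE 0.03). With the component in the fit, 5 of the 29 falling calls were kept (SEC24B, SNX3, VPS13B, VPS29 and VPS37A) and none of the rising ones. Rising calls numbered 6 without fetus 338 and 25 without fetus 376, when 11.3% and 25.6% of all genes were called. Of the 81 genes, 13 (16%) had a median level above that of the brightest class of background controls (9.71), against 13.2% of all genes. ERGIC2 was among them only narrowly, with a median of 9.727 against 9.706, and in some fetuses it lay below that (lowest 9.03). The other 68 genes, VPS13C included, lay within the range of signal that such controls can give.

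**Figure D5:**
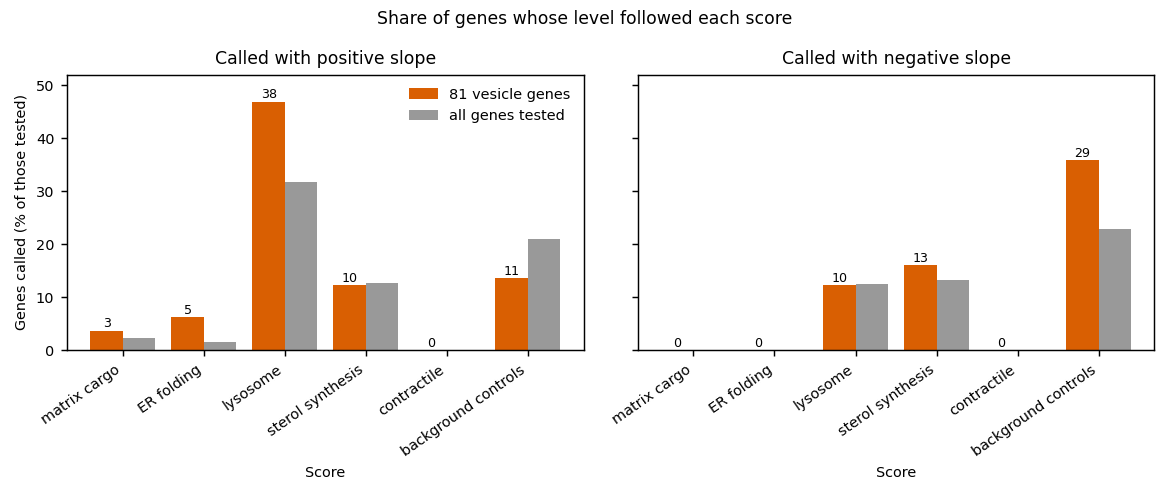
Share of genes called on each score, in percent of those tested, for the 81 vesicle genes (orange, with the number called) and for all genes tested (grey), with positive slopes at the left and negative slopes at the right. The orange bar stands above the grey one upwards for the ER folding (6.17% and 1.46%) and lysosome scores (46.9% and 31.7%). Downwards it does so for the background controls (35.8% and 22.8%), and upwards it stands below for them (13.6% and 20.9%). The bars are near each other upwards for the matrix score (3.70% and 2.25%, 3 genes called). They are also near for the sterol score (12.3% and 12.7% upwards, 16% and 13.3% downwards). Nothing is read from the lysosome and background control shares, since both went with the component.

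Other genes of these routes, taken from lists of COPII and COPI regulators, cargo receptors, Golgi SNAREs and long tethers, the exocyst, ESCRT and retromer partners and clathrin adaptors, numbered 92 past the filter of 126 listed. Their median span was 0.47. An r with the component under -0.8 was seen in 14 (15.2%, against 10.8% of all genes) and one over 0.8 in 6 (6.52%, against 2.77%). At the low end were EXOC5 of the exocyst (-0.972), USO1, a long tether between the ER and the Golgi (-0.970), CHMP2B of ESCRT-III (-0.963), PICALM, a clathrin assembly protein (-0.959) and LMAN1, the cargo receptor that marks the intermediate compartment (-0.922). At the high end were NAPA, which recycles SNAREs (0.895), and AP2A1, of the clathrin adaptor at the plasma membrane (0.886). With the lysosome score 43 of the 92 rose (46.7%, against 31.7% of all genes) and 16 fell (17.4%, against 12.4%). With the ER folding score 3 rose (3.26%, against 1.46%), the KDEL receptors KDELR2 (0.22 per SD, adjusted p = 0.00132) and KDELR3 (0.17, adjusted p = 0.0119), which return ER proteins in COPI carriers, and TMED4 (0.13, adjusted p = 0.0412), a cargo receptor of both coats.

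Summed levels of markers of muscle and other cells were set beside the component. They correlated with its score at r = 0.836 for Schwann cells (3 of 5 markers past the filter), 0.711 for skeletal muscle (5 of 8), 0.593 for adipocytes (4 of 4), 0.282 for erythroid cells (2 of 4), 0.0575 for leukocytes (1 of 5), -0.0113 for cartilage (5 of 5), -0.205 for endothelium (5 of 6) and -0.267 for tendon (4 of 6). With the background control signal, r was 0.642 for Schwann cells, 0.521 for skeletal muscle, 0.426 for adipocytes and 0.176 for erythroid cells. It was -0.0352 for cartilage, -0.0673 for leukocytes, -0.321 for tendon and -0.413 for endothelium. Single markers differed in r with the component, from -0.811 (EMCN) to 0.893 (TIE1) in endothelium and from 0.155 (S100B) to 0.822 (NGFR) in Schwann cells. The mean level of the Schwann cell markers ran from 7.80 to 8.23, that of the adipocyte markers from 7.58 to 8.11 and that of the muscle markers from 11.99 to 12.38. Their part in the spread of the vesicle genes was not tested.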

How the data were processed

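Total RNA of 24 fetal pig muscles was hybridized to 1 array each. The authors normalized the arrays by RMA in Expression Console and deposited log2 values of 47845 probe sets, from 0.78 to 14.62. RMA gives all arrays the same signal distribution, so overall differences in brightness are removed and unchanged probe sets can shift. GCOS 1.1.1 stands in the submitters' processing notes. No source used here gives a genome build for the array design, and neither coordinates nor sequences are printed. The platform annotation named 26426 probe sets, and 325 symbols were updated through the RefSeq gene table of Sscrofa11.1. No array depth applies, and the number of arrays limits the precision.

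Probe sets above their array's median in 80% of arrays were kept, and the one of highest median stood for its gene. The first component was computed on centred genes without the 87 genes, with fast fibre genes on its positive side. Fits used lmFit and eBayes with a variance trend (limma 3.58.1, R 4.3.3) and were tested on simulated data. Background controls were those with at least 13 G or C bases. "Removed" means residuals of a linear fit. Named genes were ERGIC2, VPS13C, the widest and narrowest spans in all and by role, the ends of r, the 3 largest called slopes of each fit and direction, and the extremes of probe set agreement. Relatives and partners set against each other were chosen after the values were seen. Members and lists were chosen with earlier results of these data known. Alternatives were other filters, probe set means, no symbol update, centred arrays, covariates, no trend and fetuses left out.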

Additional observations from a re-analysis of the deposited data

How the results depend on the processing

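The median r of the genes with the component kept its sign and stayed within its leave-one-out error under each alternative run. With the background control signal removed, the median span was 0.35 in place of 0.43. The mean correlation within roles, 0.113, was 0.175 with arrays centred on their median and 0.203 with the component removed. Rising calls on the matrix score, 3, were 5 with the mean of probe sets (6.17%, against 2.29% of all genes). They were also 5 with the component in the fit (6.17%, against 4.33%). Rising calls on the ER folding score, 5, were 2 without a filter (2.30%, against 0.845% of all genes) and 10 with centred arrays (12.3%, against 6.76%). They were 9 with the background controls (11.1%, against 5.37%) and 12 with the component in the fit (14.8%, against 2.93%). With 1 fetus left out they were 1 to 7 (1.23%, against 0.443%, without fetus 370 and 8.64%, against 1.72%, without fetus 272). With the background controls 4 genes fell in place of 0 (4.94%, against 4.18% of all genes). Falling calls on the lysosome score, 10, were 0 with the component, against 5.63% of all genes. With 1 fetus left out they were 10 to 20, the latter without fetus 376 (24.7%, against 15.9%). On the sterol score, rising calls, 10, were 4 with the stricter filter, 0 with either covariate, 21 without the 2 fetuses farthest from the median and 3 to 22 with 1 left out, and falling calls, 13, were 8, 2 with the background controls and 0 with the component. On the contractile score 8 genes rose with centred arrays (9.88%, against 6.69% of all genes) and 1 with the component (1.23%, against 0.794%). Rising calls on the background controls, 11, were 0 with the component, against 2.06% of all genes. Without the 2 farthest fetuses they were 2 (2.47%, against 5.22%). With 1 left out they were 6 (7.41%, against 11.3%, without fetus 338) to 25 (30.9%, against 25.6%, without fetus 376). Falling calls, 29, were 11 with the component (13.6%, against 5.22%). The cause was not tested.

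The r of 9 of the 81 genes with the component turned sign with the background control signal removed, namely SNX27 (0.0162), SNX20 (-0.184), SNX18 (-0.237), TRAPPC2 (0.0506), SEC24D (0.439), SNX3 (0.173), SNX9 (0.250), SNX13 (-0.212) and SNX25 (0.176), and that of SNX18 also with the mean of probe sets (-0.469, and its slope on the background controls -0.0522). With the component in the fit, slopes turned sign for 4 of 10 falling calls on the lysosome score, 6 of 13 on the sterol score and 5 of 29 falling and 5 of 11 rising ones on the background controls, ERGIC2 among them (0.0147), and none was called in the new direction. No paired analysis was possible from the deposited labels alone, which give no groups, dams or shared replicate numbers. The study lists dams by fetus number, but that listing was not used, so each fit leaves out shared litters.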
